A study of Mus musculus with 8 samples.

Results

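The genes described here carry iron, zinc and copper across membranes, store iron, or bind zinc in the cytosol. There were 10 of them: Slc11a1, Slc11a2, Slc40a1, Tfrc, Fth1, Cp, Steap4, Slc39a14, Mt1 and Mt2. They were found by symbol through the RefSeq identifier of each row, and each matched exactly 1 of the 24625 rows of the deposited table. Neutrophils had been isolated from the lungs of wild type (WT) mice, whose age is labelled as 6 to 12 weeks, 24 h after an intratracheal dose, 2.3 µl for each g of body weight, of either PBS or S. pneumoniae (SP) suspension, directed to the left lung. Both groups carried the same genotype and received the same volume, so the bacteria were the only labelled difference. Each of the 8 samples, 4 in the PBS group and 4 in the SP group, was measured on its own Affymetrix Mouse Gene 1.1 ST array. The study's methods describe the mice as C57BL/6J, a strain that carries a loss-of-function form of Slc11a1, so the mRNA of that gene says nothing of working protein. The study describes a sample as coming from 1 mouse, so the spread between arrays of a group is that between mice. Arrays of 1 group correlated across rows at 0.970 to 0.997 and arrays of different groups at 0.857 to 0.947, and the array medians were 6.06 or higher in PBS and 5.91 or lower in SP.

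Iron and zinc are contested between host and bacteria, and phagocytes are known to move both metals away from microbes, a process called nutritional immunity. Iron enters cells on transferrin through the transferrin receptor, is released into the cytosol by a divalent metal transporter after a reductase has acted on it, is stored in ferritin, and leaves through ferroportin. Metallothioneins are small cysteine-rich proteins that bind zinc and copper and are induced through metal-response elements in their promoters, short motifs bound by the zinc-sensing factor Mtf1.

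The promoters of Mt1 and Mt2 are shown because both genes are known to be switched on through such elements, and because Mt2 passed the test described next and Mt1 did not. In the annotation, the genes follow each other on chromosome 8 in the order Mt4, Mt3, the non-coding Gm39227, Mt2 and Mt1. The stretches below come from RefSeq's GRCm38.p6 promoter windows, plus strand, read 5′ to 3′. Capitals mark the core of the metal-response element, searched as TGCACNC or TGCGCNC on both strands, so that a match on the minus strand is printed as its reverse complement. The Mt1 stretch covers chr8:94179059-94179118, from -30 to 30 around the annotated start, and the Mt2 stretch covers chr8:94172388-94172637, from -230 to 20.
Mt1: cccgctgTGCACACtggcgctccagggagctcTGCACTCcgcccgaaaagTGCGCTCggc
Mt2: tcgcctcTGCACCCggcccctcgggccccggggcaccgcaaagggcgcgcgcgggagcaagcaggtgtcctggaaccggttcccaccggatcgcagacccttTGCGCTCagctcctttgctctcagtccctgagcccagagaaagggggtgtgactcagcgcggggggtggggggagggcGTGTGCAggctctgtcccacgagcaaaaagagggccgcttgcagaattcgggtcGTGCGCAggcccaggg

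The Mt1 window held 3 matches, all on the plus strand, beginning at -23, 3 and 21 from the annotated start. The Mt2 window held 4, beginning at -223 and -128 on the plus strand and at -50 and 5 on the minus strand. Of all 32851 promoter windows of the same length, 25.7% held at least 1 match, 1.97% at least 3 and 0.517% at least 4. One of the 2 windows of Tfrc held 2 overlapping matches, and the windows of Slc11a1, Fth1, Cp and Steap4 held none. Slc11a2, Slc40a1 and Slc39a14 had no entry. A match of letters is a description of the window and not a bound site.

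Values are RMA intensities on a log2 scale, and a difference is SP minus PBS, so that 1 log2 unit is a 2-fold difference. A gene was called changed where limma gave it an adjusted p no higher than 0.05 (Benjamini-Hochberg, all rows). An adjusted p below comes from that fit unless another test, an alternative setting or an array left out is named with it. During S. pneumoniae pneumonia, Slc39a14 and Slc11a2, both importers of divalent metals, rose most. Slc11a1, Mt2 and Fth1 rose by less than 2-fold, and Tfrc fell slightly. Slc40a1, Cp, Steap4 and Mt1 did not pass the test. Of the 10 genes, 6 were called (60.0%), 5 higher and 1 lower in SP. Over all rows, 44.1% were called, 21.5% higher and 22.6% lower. At a difference of at least 2-fold, 2 of the 10 were higher and 0 were lower, against 6.37% and 11.3% of all rows. The groups did not overlap for 6 of the 10 genes and for 49.0% of all rows. The median difference was 0.40 for the 10 genes and 0.10 for all rows. Since so many rows differed between the groups, these counts describe the 10 genes and do not set them apart from others.

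**Figure D1:**
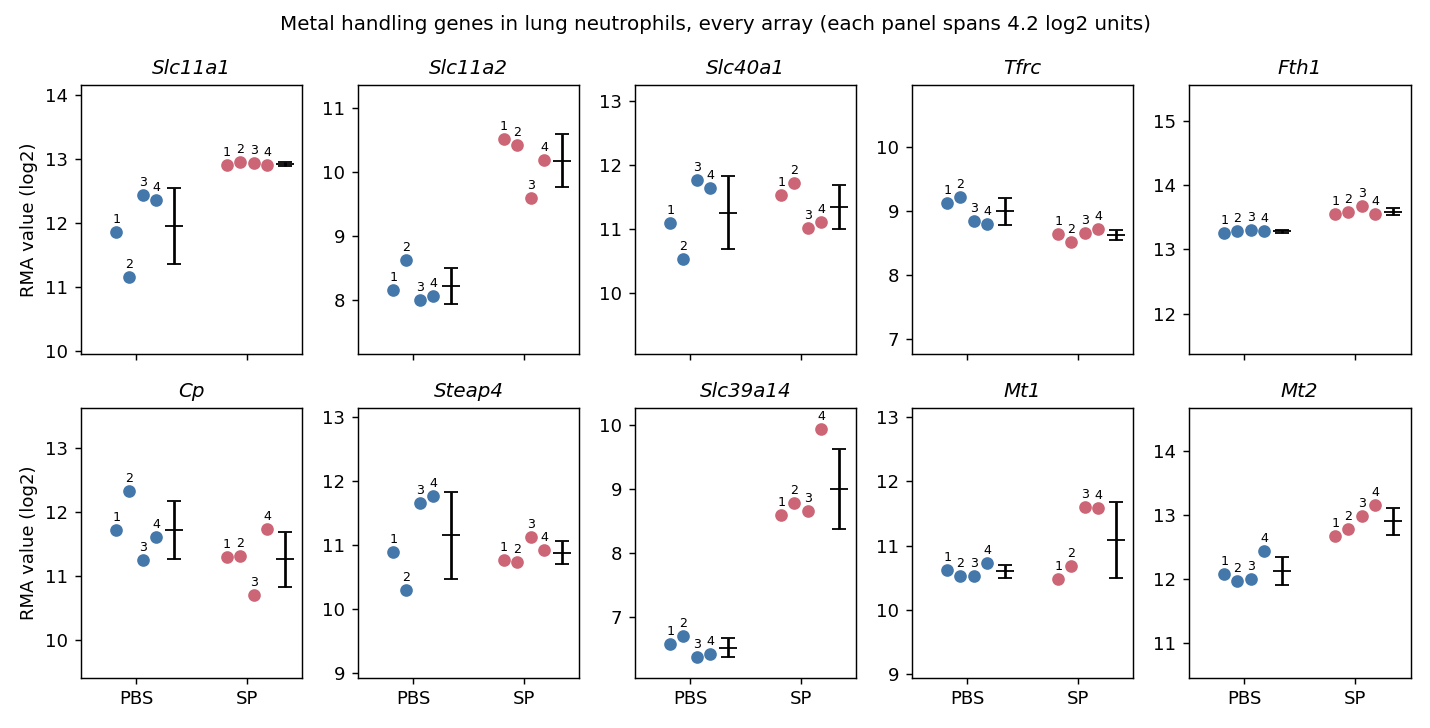
RMA values (log2, vertical axis) of the 10 genes in every array, by group (horizontal axis), with the replicate number above each point and the mean and SD of 4 arrays beside the points. Each panel spans the same number of log2 units. All 4 SP arrays lie above all PBS arrays for Slc11a1, Slc11a2, Fth1, Slc39a14 and Mt2, while for Mt1 2 SP arrays, replicates 3 and 4, do so.

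Slc39a14 (NM_001135151), or ZIP14, brings zinc and also iron that is not bound to transferrin into cells, and is known as an acute phase gene of the liver. Its values were 6.59, 6.71, 6.38 and 6.43 in PBS replicates 1 to 4 and 8.60, 8.79, 8.66 and 9.94 in SP replicates 1 to 4. The PBS arrays lay close together and far below every SP array, and SP replicate 4 stood above the other SP arrays. The PBS mean was 6.53 ± 0.15 (SD, n = 4, as for every mean here), the SD of the SP arrays was 0.63, and the mean rose by 2.46 (SE 0.28, 95% interval 1.82 to 3.11), or 5.52-fold, with an adjusted p of 0.000254 by limma. Without SP replicate 4 the difference was 2.15. Only 339 of 24625 rows (1.38%) had a larger rise.

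Slc11a2 (NM_008732), or DMT1, carries iron released in endosomes, and other divalent metals, into the cytosol. Its values were 8.17, 8.63, 8.00 and 8.07 in PBS and 10.52, 10.43, 9.60 and 10.19 in SP. The groups were separated by 0.97 log2 units, with SP replicate 3 the lowest of its group and PBS replicate 2 the highest of its own. The mean rose from 8.22 ± 0.28 to 10.18 ± 0.41, a difference of 1.97 (SE 0.22, 95% interval 1.46 to 2.47), or 3.91-fold (adjusted p = 0.000229 by limma), and 554 rows (2.25%) rose more.

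Slc11a1 (NM_013612), or NRAMP1, is the related transporter of the phagosome membrane of macrophages and neutrophils, where it withdraws metal ions from engulfed microbes. Its values were 11.86, 11.15, 12.43 and 12.36 in PBS and 12.90, 12.95, 12.93 and 12.90 in SP. The PBS arrays were spread over 1.28 log2 units and the SP arrays over 0.05, and no PBS array reached the lowest SP array. The mean rose from 11.95 ± 0.59 to 12.92 ± 0.03, a difference of 0.97 (SE 0.26, 95% interval 0.39 to 1.56), or 1.96-fold (adjusted p = 0.0161 by limma). That value lay just under the 2-fold threshold, and leaving out PBS replicate 2 gave 0.71, whereas leaving out PBS replicate 3 gave 1.13. Slc11a2 rose by 0.99 more than Slc11a1, which was not distinguishable from the spread between arrays (exact two-sided permutation test, p = 0.114, 0.342 after adjustment over 3 pairs of genes). With 4 arrays against 4, the smallest p this test can give is 0.0286.

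Tfrc (NM_011638) encodes transferrin receptor 1, whose mRNA is known to be stabilized when cytosolic iron is low. Its values were 9.12, 9.21, 8.84 and 8.79 in PBS and 8.63, 8.51, 8.65 and 8.71 in SP. Every SP array lay below every PBS array, by 0.08 at the closest. The mean fell from 8.99 ± 0.21 to 8.62 ± 0.08, a difference of -0.36 (SE 0.11, 95% interval -0.62 to -0.11), or 1.29-fold lower (adjusted p = 0.0295 by limma). The call was lost in 9 of 17 alternative settings, among them arrays centred on their median (difference -0.08, adjusted p = 0.495) and each of the fits without PBS replicate 1 (0.084), PBS replicate 2 (0.066), SP replicate 1 (0.0644) or SP replicate 2 (0.0704), where the number is the adjusted p.

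Slc40a1 (NM_016917) encodes ferroportin, the only known exporter of iron from cells. Its values were 11.09, 10.53, 11.77 and 11.65 in PBS and 11.54, 11.72, 11.02 and 11.11 in SP. The SP arrays lay inside the range of the PBS arrays. The means were 11.26 ± 0.57 and 11.35 ± 0.34, and the difference of 0.09 had a 95% interval from -0.57 to 0.75 (adjusted p = 0.798 by limma). Changes inside that interval could not be told from none with these arrays. The importer against the exporter, taken as Tfrc minus Slc40a1 within an array, differed by -0.45 between SP and PBS (exact two-sided permutation test, p = 0.40, also 0.40 after adjustment).

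Fth1 (NM_010239) encodes the heavy chain of ferritin, the subunit that oxidizes iron for storage. Its values were 13.26, 13.29, 13.30 and 13.28 in PBS and 13.55, 13.58, 13.67 and 13.56 in SP. Within each group the arrays agreed within 0.11 log2 units or less, and the groups were 0.26 apart. The mean rose from 13.28 ± 0.02 to 13.59 ± 0.05, a difference of 0.31 (SE 0.06, 95% interval 0.16 to 0.45), or 1.24-fold (adjusted p = 0.00495 by limma). The change was small but larger than the spread between arrays. The light chain gene Ftl1, which is not one of the 10, rose by 0.59 (SE 0.06, 1.51-fold, adjusted p = 0.000179 by limma), from 12.78 ± 0.02 to 13.37 ± 0.05.

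Cp and Steap4 encode enzymes that change the charge of iron or copper. Cp (NM_001276248) encodes ceruloplasmin, a copper enzyme that oxidizes exported iron, and its values were 11.71, 12.33, 11.25 and 11.61 in PBS and 11.30, 11.31, 10.70 and 11.74 in SP. The groups overlapped, and the difference of -0.46 (95% interval -1.08 to 0.16) did not pass the test (adjusted p = 0.182 by limma). Steap4 (NM_054098) encodes a metalloreductase, and its values were 10.89, 10.30, 11.65 and 11.76 in PBS and 10.77, 10.73, 11.12 and 10.92 in SP. The PBS arrays were spread over 1.45 log2 units and enclosed all SP arrays. The difference of -0.27 (95% interval -0.96 to 0.43) did not pass the test (adjusted p = 0.474 by limma).

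Of the metallothioneins, Mt2 passed the test and Mt1 did not. Mt2 (NM_008630) measured 12.07, 11.97, 12.00 and 12.44 in PBS and 12.67, 12.78, 12.98 and 13.15 in SP. All SP arrays lay above all PBS arrays, and the mean rose from 12.12 ± 0.22 to 12.90 ± 0.21, a difference of 0.77 (SE 0.14, 95% interval 0.45 to 1.10), or 1.71-fold (adjusted p = 0.00291 by limma). Mt1 (NM_013602) measured 10.62, 10.52, 10.53 and 10.73 in PBS and 10.48, 10.68, 11.60 and 11.58 in SP. The SP arrays fell apart into replicates 1 and 2, which lay within or below the PBS range, and replicates 3 and 4, which lay above it. The difference of 0.49 (95% interval -0.11 to 1.08) did not pass the test (adjusted p = 0.152 by limma). The change of Mt1 was 0.29 smaller than that of Mt2, a difference that was not distinguishable from the spread between arrays (exact two-sided permutation test, p = 0.257, 0.386 after adjustment), so the data do not show that both genes, whose promoter stretches were given above, responded differently.

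**Figure D2:**
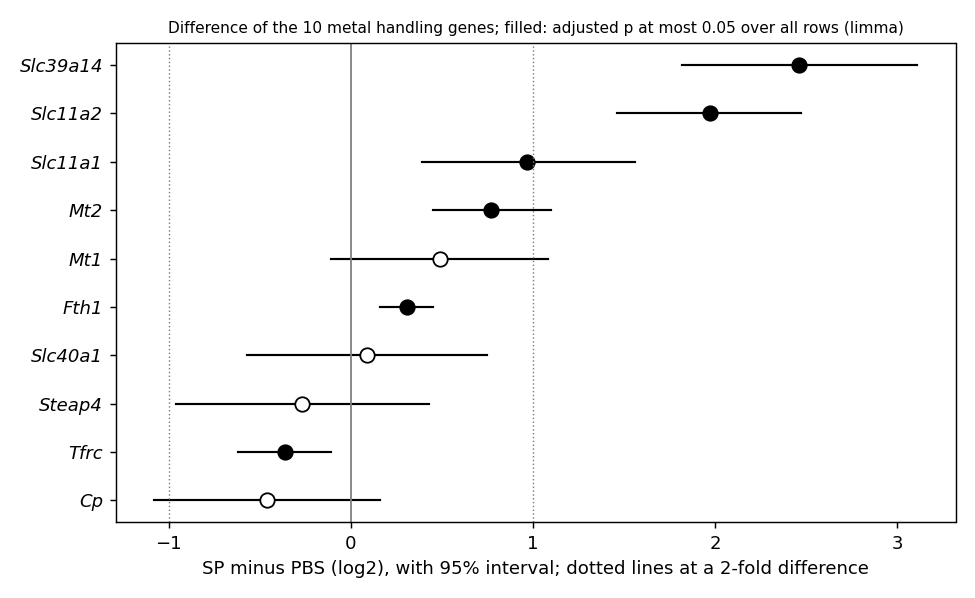
Difference between SP and PBS (log2, horizontal axis) of each of the 10 genes, ordered by size, with its 95% interval from limma as a line. Filled points were called by limma at 0.05, and only the intervals of Slc39a14 (1.82 to 3.11) and Slc11a2 (1.46 to 2.47) lie wholly beyond a 2-fold rise.

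The 8 arrays did not separate in the same way for each gene. Among the PBS arrays, replicate 2 was the lowest for Slc11a1, Slc40a1, Steap4, Mt1 and Mt2 and the highest for Slc11a2, Tfrc, Cp and Slc39a14. Among the SP arrays, replicate 3 was the lowest for Slc11a2, Slc40a1 and Cp, and replicate 4 was the highest for Slc39a14, Cp, Tfrc and Mt2. The row with the profile nearest to that of Slc11a2, by Euclidean distance of row-centred values over the 8 arrays, was 4931406H21Rik (0.43 log2 units). The rows nearest to Slc39a14 were Vcan (0.64), Ccl12 (0.66) and Ackr1 (0.76).

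Whether the values belong to neutrophils cannot be read from the genes alone, since the preparations also held RNA of other lung cells. Neutrophil markers, led by Lcn2 and Retnlg, had a summed level of 16.12 to 16.34 in PBS and 15.70 to 16.37 in SP (log2 of the summed intensities of 10 genes), so these markers were bright in both groups. Of the 10, 3 fell (Retnlg, Mmp8 and Mmp9, the last pair named after their values were seen) and none rose, and SP replicates 1, 2 and 4 had sums of 15.83, 15.70 and 15.94, below every PBS array. Markers of other lung cells differed too, where 22.6% of all rows were called lower and the genes named are the brightest of each list. For ciliated epithelium, led by Tppp3 and Cdhr3, 9 of 10 genes fell and the summed level went from 13.02–13.73 to 10.34–11.10. For club cells, led by Scgb1a1 and Cbr2, 7 of 8 fell (15.65–16.26 to 13.90–14.76), and for alveolar type 2 cells, led by Sftpc and Cxcl15, 8 of 10 fell (15.57–15.97 to 13.99–15.15). For alveolar type 1 cells, led by Emp2 and Clic5, 5 of 7 fell (13.12–13.96 to 11.44–12.62). Clic5 was not among the 5 (difference -0.16, adjusted p = 0.758 by limma). For endothelium, led by Calcrl and Cdh5, 10 of 12 fell (13.90–14.85 to 12.58–13.45), and for fibroblasts, led by Bgn and Dcn, 4 of 10 fell (13.19–13.85 to 11.05–13.12). In bulk samples, fewer cells of a type and less RNA per cell cannot be told apart.

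Some macrophage and red cell markers also differed. For alveolar macrophages, led by Chil3 and Car4, 6 of 10 markers fell and 1, Chil3, rose, with summed levels of 13.29 to 14.09 in PBS and 12.86 to 13.40 in SP. For monocytes and interstitial macrophages, led by Csf1r and C1qb, 4 of 9 rose (against 21.5% of all rows) and none fell. Csf1r (adjusted p = 0.0547 by limma) and C1qb (0.815) were not among the 4. The summed levels were 11.41 to 12.30 in PBS, 12.10 to 12.65 in SP replicates 1 to 3 and higher in SP replicate 4. Of 8 erythroid markers, 2 fell (25.0%, against 22.6% of all rows), the globin genes Hba-a2 and Hbb-bs (summed level of the list 10.97–13.36 to 8.41–9.23). Alas2 was not called (difference -1.11, adjusted p = 0.134 by limma). Slc4a1, Klf1, Epb42 and Gata1 did not exceed 4.90 on any array, the highest value of the Y-linked genes Ddx3y, Kdm5d and Uty that served as the background level.

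These lists moved with several of the 10 genes. Among the PBS arrays, replicate 2 had the highest summed levels of ciliated, club, alveolar type 2, alveolar type 1 and endothelial markers. It also had the highest values of Cp, Tfrc, Slc11a2 and Slc39a14. Among the SP arrays, replicate 4 had the highest summed levels of both macrophage lists and of club, alveolar type 2, alveolar type 1, endothelial and fibroblast markers. The same array had the highest Slc39a14, Cp, Tfrc and Mt2. Between the groups, 4 of 9 monocyte and interstitial macrophage markers rose, as Slc39a14 and Slc11a2 did, and most epithelial and endothelial markers fell, as Tfrc did. In PBS, replicate 2 had the lowest sum of the monocyte list (11.41) and the highest values of Slc39a14 (6.71) and Slc11a2 (8.63). In SP, replicate 3 had the lowest sum of that list (12.10) and the lowest Slc11a2 (9.60). Replicate 4 of SP had the highest sum, the highest Slc39a14 and the third highest Slc11a2. The summed neutrophil markers of the PBS arrays (16.12, 16.21, 16.27 and 16.34 in replicates 2, 1, 4 and 3) had the same order as Slc11a1 and Slc40a1. The SP arrays did not repeat this. Their sums were 15.70, 15.83, 15.94 and 16.37 in replicates 2, 1, 4 and 3. Slc40a1 ran in the reverse order (11.72, 11.54, 11.11 and 11.02), and Slc11a1 stayed within 12.90 to 12.95. The part of these cell types in the differences was not tested. All 10 genes were above background on every array, with a lowest value of 6.38 against 4.33 to 4.90 for the Y-linked genes. The study's methods describe purity, judged on stained cytospins, only for the samples from mice with pneumonia. There the few other cells mostly looked like alveolar macrophages and rarely like eosinophils. Ly6G mRNA is described as high in all samples.

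**Figure D3:**
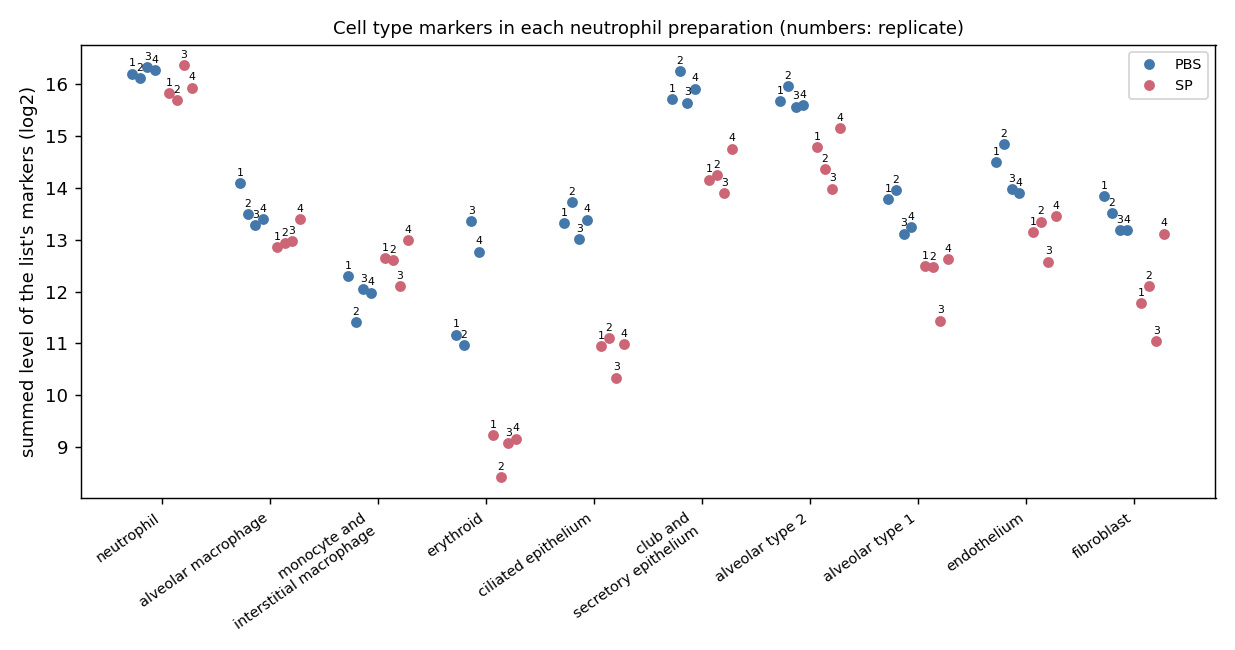
Summed level of the markers of each cell type (log2, vertical axis) in every array, with the replicate number above each point. Neutrophil markers overlap between PBS (16.12 to 16.34) and SP (15.70 to 16.37), whereas ciliated markers lie at 13.02 to 13.73 in PBS and 10.34 to 11.10 in SP.

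The other genes of metal handling moved in both directions. Of 19 measured genes of iron uptake, storage and sensing, 10 were called (52.6%, against 44.1% of all rows), 6 higher and 4 lower in SP, with a median difference of -0.06. Slc25a37, or mitoferrin 1, which brings iron into mitochondria, rose 3.29-fold from 10.02 ± 0.23 to 11.74 ± 0.16 (difference 1.72, SE 0.13, adjusted p = 3.66e-05 by limma). Its PBS values were 9.86, 9.80, 10.29 and 10.12 and its SP values 11.93, 11.78, 11.69 and 11.54, with no overlap. Fbxl5, an iron-sensing subunit of a ubiquitin ligase, rose by 0.68 (SE 0.16, 1.60-fold, adjusted p = 0.0105). Bmp6, a ligand that induces hepcidin in the liver, fell by 1.62 on the log2 scale (SE 0.32, adjusted p = 0.00446), from 10.11 ± 0.44 to 8.49 ± 0.61.

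Of 17 measured genes of heme synthesis, transport and breakdown, 9 were called (52.9%, against 44.1% of all rows), 2 higher and 7 lower, with a median difference of -0.27. The 2 that rose were the heme oxygenases, which free iron from heme. Hmox1 rose 4.44-fold, from 10.55 ± 0.30 in PBS to 12.70 ± 0.20 in SP, with 1.64 log2 units between the nearest arrays of the groups (difference 2.15, SE 0.17, adjusted p = 3.64e-05 by limma). Hmox2, named after its value was seen, rose 2.20-fold (difference 1.14, SE 0.14, adjusted p = 0.000338). Flvcr2, a membrane transporter of the major facilitator family, fell by 2.38 (SE 0.17, 5.22-fold lower, adjusted p = 2.45e-05). Its SP values of 5.54, 5.44, 5.87 and 5.64 lay little above the background level, which limits how well that fold is known. Alas1, the first enzyme of heme synthesis, differed by 0.20 (SE 0.10, adjusted p = 0.134). Alas1 was called in 2 of 17 alternative settings, with array weights (0.24, adjusted p = 0.0473) and with centred arrays (0.48, 0.00469), and had the opposite sign with another quantile normalization (-0.06, 0.739). Alad and Fech had no row.

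Of 26 other genes of zinc transport and metallothioneins, 12 were called (46.2%, against 44.1% of all rows), 7 higher and 5 lower, with a median difference of 0.03, and none rose 2-fold. Of the 7, 2 (Slc30a2 and Slc30a8, named after their values were seen) did not exceed the background level on any array, and Kdm5d, one of the Y-linked background genes, was itself called higher by 0.19 (adjusted p = 0.0497 by limma), so such small differences at background are not read as expression. The importers Slc39a8 and Slc39a10, relatives of Slc39a14, fell. Slc39a8 went from 10.25, 10.25, 9.79 and 9.53 to 8.85, 8.76, 7.79 and 9.42 (difference -1.25, SE 0.33, adjusted p = 0.0163 by limma), and Slc39a10 from 9.06, 9.40, 8.70 and 8.67 to 7.75, 7.72, 6.89 and 8.43 (difference -1.26, SE 0.31, adjusted p = 0.0121). For both genes, SP replicate 4 was the SP array nearest to the PBS arrays and SP replicate 3 the farthest. The epithelial and endothelial marker sums of these 2 arrays had the same order, but 2 arrays show little, and a link was not tested. Slc39a4 differed by 0.40 (SE 0.17, adjusted p = 0.078), and passed the test without PBS replicate 2 (0.51, adjusted p = 0.0392), with arrays centred on their median (0.68, 0.00321), with array weights (0.53, 0.0113) and with the replicate block (0.40, 0.0401). The exporter Slc30a7 rose by 0.31 (SE 0.08, adjusted p = 0.0131), a call lost with the robust prior (adjusted p = 0.0525), with another quantile normalization (0.22, adjusted p = 0.063) and under limma treat. Mtf1, the factor that binds the elements shown above and was singled out after its value was seen, differed by 0.52 (SE 0.19, adjusted p = 0.0599). It passed the test without SP replicate 3 (0.70, adjusted p = 0.00427), with array weights (0.62, 0.00337), with arrays centred on their median (0.80, 0.00553) and with another quantile normalization (0.74, 0.00423). Of the other metallothioneins, neither Mt3 (difference 0.09, adjusted p = 0.521) nor Mt4 (0.27, adjusted p = 0.0986, at background level on every array) passed the test.

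Of 12 genes of copper handling, 8 were called (66.7%, against 44.1% of all rows), 4 higher and 4 lower, with a median difference of -0.06. Slc31a2, a low-affinity copper transporter also called CTR2, rose 4.62-fold, from 10.89, 9.92, 10.87 and 10.75 to 12.83, 13.02, 12.60 and 12.82 (difference 2.21, SE 0.22, adjusted p = 0.000116 by limma). Atp7b, a copper-exporting ATPase, showed a 9.89-fold fall, from 8.41, 9.30, 8.33 and 8.54 to 5.29, 5.46, 5.01 and 5.61 (difference -3.31, SE 0.23, adjusted p = 2.07e-05). These SP values lay little above the background level, which limits how well the size of that fold is known. The highest Atp7b value was in PBS replicate 2, the array with the highest epithelial marker sums, and a link was not tested. Sco2, a copper chaperone of cytochrome c oxidase, fell by 2.27 (SE 0.32, adjusted p = 0.000698), and Sod1, the copper and zinc superoxide dismutase, fell by 0.51 (SE 0.10, adjusted p = 0.00466), a call lost with arrays centred on their median (-0.23, adjusted p = 0.0691) and under limma treat.

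The last list held 8 secreted proteins that bind metal or heme outside cells or regulate their supply. Of these, 3 were called (37.5%, against 44.1% of all rows), 1 higher and 2 lower, with a median difference of -0.26. Hamp, which encodes hepcidin, the peptide hormone that closes ferroportin, was at background level in PBS (4.89, 4.57, 4.80 and 4.68) and measured 8.60, 7.64, 9.62 and 7.53 in SP. The SP mean of Hamp lay 3.61 (SE 0.42, limma interval 2.64 to 4.58), or 12.2-fold, above its PBS mean (adjusted p = 0.000285 by limma). Since the PBS values were at background level, this fold is relative to background and not to a measured PBS expression. Trf, or transferrin, the iron carrier of plasma, fell by 1.90 (SE 0.18, 3.72-fold lower, adjusted p = 0.000101), from 11.94 ± 0.14 to 10.04 ± 0.38. Lcn2, which takes up bacterial siderophores, differed by 0.22 (SE 0.08, adjusted p = 0.0505), and S100a8, a subunit of the zinc-binding and manganese-binding calprotectin, by -0.18 (SE 0.11, adjusted p = 0.211). Lcn2 was called by the methods' t-test (adjusted p = 0.0346), with array weights (0.0462) and with centred arrays (difference 0.50, 0.00492). Without SP replicate 3, in which S100a8 was 13.32 against 12.79 to 12.99 in the other SP arrays, 6 of the 8 genes were called, S100a8 among them (difference -0.28, adjusted p = 0.0193), and S100a8 was also called with array weights (-0.27, 0.0155) and another quantile normalization (-0.31, 0.0403) but had the opposite sign with centred arrays (0.10, 0.541).

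**Figure D4:**
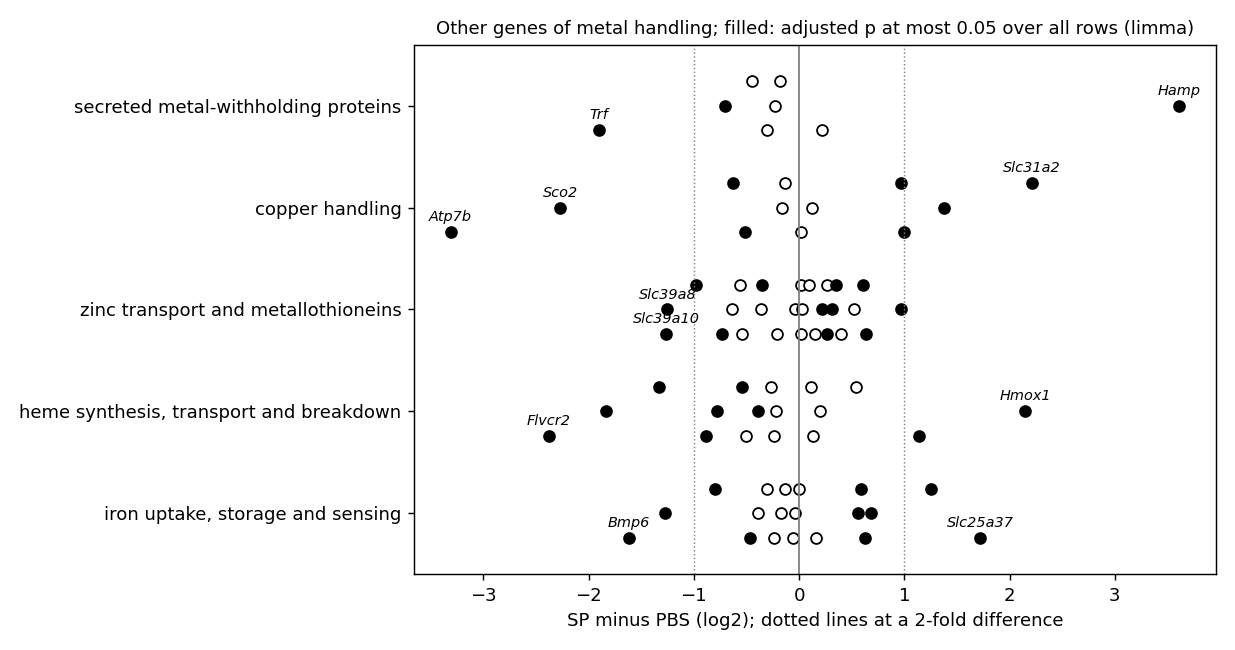
Difference between SP and PBS (log2, horizontal axis) of the other genes of metal handling, by list (vertical axis; points are shifted vertically within a list to keep them apart). Filled points were called by limma at 0.05, and the named points are those at 2-fold that the text describes, from Atp7b (-3.31) to Hamp (3.61).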

How the data were processed

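Total RNA of 8 lung neutrophil samples was hybridised to Affymetrix Mouse Gene 1.1 ST arrays. The authors deposited log2 intensities made by robust multi-array averaging, with corrections for background, GC content and probe sequence, then quantile normalization, and with probes summarised per gene by median polish under custom mappings. The submitters' processing notes name Affymetrix Expression Console and Partek. Quantile normalization makes values relative within an array, bright signals may be compressed, and levels of different genes were not compared. The number of arrays limits the precision.

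Symbols came from RefSeq genes of GRCm38.p6, matched without versions (19915 of 24625 rows). No build is named for the rows, so no gene coordinates are given. Groups followed the sample titles. Rows were compared with limma 3.58.1 (R 4.3.3; lmFit, eBayes, no covariates, two-sided, Benjamini-Hochberg over all rows), after it had been tested on simulated data. This stands for the methods' one-way ANOVA, which was run as an alternative and is called the methods' t-test below. Pairs of genes were compared by exact permutation tests over 70 arrangements. Summed marker levels are log2 of summed intensities.

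The 10 genes and the lists were chosen with earlier results of these data known. Genes named were the 10; of each metal list the 2 with the highest mean and the 2 with the largest called difference at 2-fold; the 2 highest of each marker list; the 3 nearest profiles; and the Y-linked genes. Some items that this rule or the lists hold are not reported here. Alternatives were the methods' t-test, a robust prior with trend, arrays centred on their median, array weights, another quantile normalization, a block for the replicate number, dim rows left out, 1 row per symbol, limma treat and each array left out.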

Additional observations from a re-analysis of the deposited data

Results flagged for a closer look

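In groups of 4 arrays, an array was singled out when its gap to the nearest other array took up most of the range of its group (Dixon's ratio). Of 60 groups examined (30 genes in PBS and in SP), 4 were singled out, and chance gives about 1 in 20. The value of Slc39a14 in SP replicate 4, 9.94, lay above the other SP arrays at 8.60 to 8.79. Fbxl5 in SP replicate 3 was 13.08, the highest SP value. Slc31a2 in PBS replicate 2 was 9.92, the lowest PBS value, and Trf in the same array was 12.14, the highest PBS value.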

How the results depend on the processing

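Slc39a14 and Slc11a2 were called under all 17 alternatives, and Mt2, Fth1 and Slc11a1 under all but limma treat, which tests against a difference of 1 log2 unit. Under treat, 2 of the 10 genes were called, and 1 iron, 3 heme, 0 zinc and 3 copper genes (660 rows higher and 912 lower). The genes called numbered 5 or 6 under the other alternatives. With arrays centred on their median, 4 of the 10 genes were at least 2-fold higher and Mt1 was called (difference 0.77, adjusted p = 0.0223). The centring moved the median difference of all rows from 0.10 to 0.38, and the rows called at 2-fold from 1568 higher and 2773 lower to 2375 and 1896, so that directions are relative to it. Called secreted genes numbered 8 with array weights, 6 with another quantile normalization and 2 to 6 with 1 array left out, in turn. The difference reversed for Slc40a1 with another quantile normalization (-0.13) and without PBS replicate 2 (-0.15) or SP replicate 2 (-0.03), with a range of -0.15 to 0.26 over the arrays left out in turn, for Steap4 (0.02) and S100a8 (0.10) with centred arrays, and for Alas1 with another quantile normalization (-0.06); none of these was called. The cause was not tested. Pair differences kept their direction. With an array left out or with the replicate block their exact test cannot reach a p of 0.05. Centring arrays on their median cannot change a difference of 2 genes within an array. Only another quantile normalization therefore bears on the threshold, and there p stayed above it. For Slc11a1 minus Slc11a2 it gave -1.27 (exact permutation test, p = 0.0571). Same-numbered arrays did not deviate together (r of 0.02, 0.03, 0.35 and -0.27), and the replicate number as a block left 5 of the 10 genes called, without Tfrc (adjusted p = 0.0717), and 9842 rows.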
